A study of Mus musculus with 9 samples.

Results

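The genes described here encode enzymes, a carrier and a regulator of fatty acid synthesis from citrate, acetate or acetoacetate in mouse liver. They were chosen by gene symbol, as Slc25a1, Acly, Acss2, Acaca, Acacb, Mid1ip1, Fasn and Aacs, and all 8 were found among the 22180 genes with a single-symbol probe set. Liver RNA came from 3 groups of 3 mice: double KO mice lacking both SMRT and NCoR in the liver, SMRT KO mice lacking SMRT there, and control mice with floxed, undeleted alleles of both corepressors (SMRT and NCoR fl/fl). All 9 mice were euthyroid females of 7 to 9 weeks on standard chow, with a mixed 129SV/B6 background. Each liver was hybridised to its own whole-transcript array. The labels name neither the Cre driver nor litters, and they do not give the NCoR alleles of the SMRT KO mice. No group lacked NCoR alone, and the genotypes were not checked here.

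Fatty acid synthesis in the cytosol starts with citrate leaving the mitochondrion, continues through acetyl-CoA and malonyl-CoA, and ends with palmitate. The liver raises the whole route together after feeding, under insulin, sterol-responsive SREBP factors, the carbohydrate-responsive factor ChREBP (encoded by Mlxipl), liver X receptors and thyroid hormone receptors. SMRT and NCoR are corepressors that bind several of these nuclear receptors and bring histone deacetylase to their target genes.

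All 8 genes were expressed well above the noise of the arrays. The lowest member value on any array was 7.51 (log2 scale), against a 95th percentile of 5.91 to 6.22 over the arrays for 1394 olfactory and vomeronasal receptor genes, genes that serve sensory neurons. Array medians over all probe sets were 5.96 to 6.02, and correlations between arrays were 0.987 to 0.992 within groups and 0.983 to 0.989 between groups. All 8 hepatocyte markers lay above the receptor percentile, and their summed linear level was 63640 to 66695 in double KO, 68863 to 72993 in SMRT KO and 69611 to 72268 in control livers, lower in double KO with no overlap. RNA of whole liver was measured, so fewer cells of a type and less RNA per cell cannot be told apart. The log2 values of different genes come from different probes, so levels were compared only between livers. Differences between paired genes within a liver, given below, were likewise compared only between livers.

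Sequences around the annotated gene start are given for the 3 genes that passed the test in double KO livers (Fasn, Acaca and Acacb). Slc25a1 is given beside them, as its fold change against control was the smallest of the 8. Each window, taken from RefSeq on GRCm38.p6, runs 5′ to 3′ from 250 bases before to 50 bases after the annotated gene start. The capitals mark the CCAAT box, the letters recognised by NF-Y, on either strand.
Fasn, chr11:120824498-120824797, minus strand: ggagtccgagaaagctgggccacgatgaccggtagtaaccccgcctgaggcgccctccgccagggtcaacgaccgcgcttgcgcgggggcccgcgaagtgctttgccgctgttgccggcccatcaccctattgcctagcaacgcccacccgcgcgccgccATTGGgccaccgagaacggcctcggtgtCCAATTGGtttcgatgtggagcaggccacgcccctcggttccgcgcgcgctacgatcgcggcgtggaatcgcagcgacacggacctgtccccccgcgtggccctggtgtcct
Acaca, chr11:84195188-84195487, plus strand: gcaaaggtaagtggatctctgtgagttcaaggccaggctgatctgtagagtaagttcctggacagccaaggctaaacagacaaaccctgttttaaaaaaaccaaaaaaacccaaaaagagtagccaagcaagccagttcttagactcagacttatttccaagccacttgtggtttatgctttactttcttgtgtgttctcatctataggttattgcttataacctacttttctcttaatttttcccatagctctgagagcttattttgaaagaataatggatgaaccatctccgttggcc
Acacb, chr5:114165268-114165567, plus strand: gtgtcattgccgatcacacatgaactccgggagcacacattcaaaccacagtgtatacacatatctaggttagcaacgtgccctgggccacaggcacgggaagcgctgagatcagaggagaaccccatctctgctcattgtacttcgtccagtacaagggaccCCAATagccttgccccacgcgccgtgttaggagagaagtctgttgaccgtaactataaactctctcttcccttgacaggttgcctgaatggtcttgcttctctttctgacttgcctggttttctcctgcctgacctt
Slc25a1, chr16:17928170-17928469, minus strand: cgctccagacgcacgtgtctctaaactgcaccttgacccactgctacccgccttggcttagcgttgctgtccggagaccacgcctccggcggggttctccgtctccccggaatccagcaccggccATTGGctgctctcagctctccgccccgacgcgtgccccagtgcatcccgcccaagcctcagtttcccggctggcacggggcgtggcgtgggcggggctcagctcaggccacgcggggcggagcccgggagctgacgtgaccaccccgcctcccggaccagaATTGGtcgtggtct

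G and C made up 69.3% of the Fasn and Slc25a1 windows, 51.7% of the Acacb window and 39.7% of the Acaca window. The Fasn window holds the CCAAT letters at 3 places, with an overlapping pair on opposite strands (CCAATTGG). Slc25a1 holds them at 2 places, Acacb at 1 and Acaca at none. Among all 8 members, 5 windows held CCAAT, against 37.4% of the 32851 mouse promoter windows of the same length. The GC box GGGCGG was in 4 of 8 (35.7% of all windows), the nuclear receptor core AGGTCA in 2 of 8 (16.3%), in Acacb and Acly, and the E-box CACGTG in 1 of 8 (7.15%), in Slc25a1. The AGGTCA of Acacb lies after the annotated start, at base 43 on the minus strand, and that of Acly before it, at -40. The sterol element TCACNCCAC was in 0 of 8 windows (1.24% of all), and so was a direct repeat of AGGTCA spaced by 4 bases (0.0152%). All motifs were searched on both strands. The carboxylase genes are known to use several promoters, and a single annotated start per gene was searched. In the Acacb window the annotated start falls on the letters ATG. Whether the Acaca and Acacb windows hold a promoter used in liver was not tested, so their letters cannot be read as those of one.

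Double KO livers had the highest mean of the 3 groups for all 8 genes. Against control livers, Fasn, Acaca and Acacb rose 2.06-fold, 1.93-fold and 2.48-fold, and the smallest estimates were those of Acly (1.31-fold) and Slc25a1 (1.12-fold), which did not pass. By limma's test over all genes (Benjamini-Hochberg adjusted p under 0.05), 3 of 8 rose, 0 fell and 5 did not pass, where 0.523% of all genes rose. Their median log2 fold change was 0.80, with a range of 0.16 to 1.31, against a median of 0.00359 over all 22180 genes. The 3 double KO values lay above all 3 control values for 7 of 8 genes, as they did for 7.73% of all genes. Slc25a1 was the exception.

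**Figure D1:**
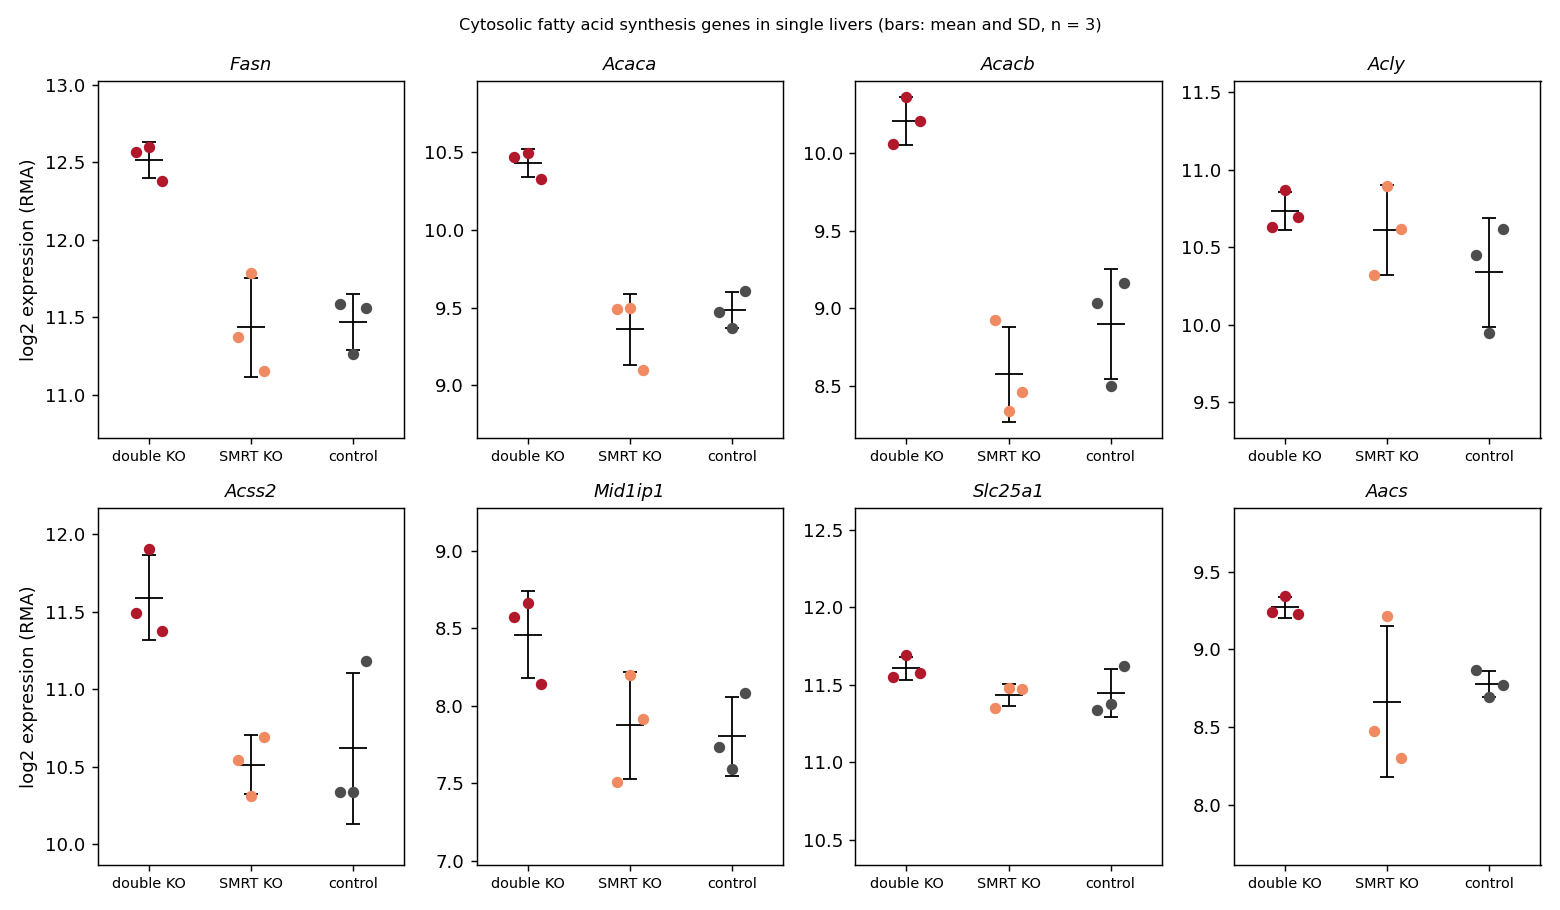
Log2 expression (RMA, y axis) of each gene in single livers of the double KO, SMRT KO and control groups; points are livers and bars show mean and SD (n = 3). Every panel spans the same log2 range, and the double KO livers stand clear of the other 6 for Fasn, Acaca, Acacb and Acss2.

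Citrate leaves the mitochondrion through Slc25a1, the tricarboxylate carrier of the inner membrane. Slc25a1 had log2 values of 11.55, 11.69 and 11.58 in double KO livers, 11.35, 11.48 and 11.47 in SMRT KO livers and 11.33, 11.38 and 11.62 in control livers. The double KO values lay above all SMRT KO values and overlapped the controls, through control replicate 3. The log2 fold change was 0.16 against control (standard error 0.0877, 95% interval -0.04 to 0.36, adjusted p = 0.575) and 0.17 against SMRT KO (-0.02 to 0.37, adjusted p = 0.560). The upper bounds correspond to 1.28-fold and 1.29-fold.

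Cytosolic acetyl-CoA comes from citrate through Acly, ATP citrate lyase, or from acetate through Acss2, the cytosolic and nuclear acetyl-CoA synthetase. Acly had log2 values of 10.63, 10.87 and 10.70 in double KO livers, 10.32, 10.90 and 10.62 in SMRT KO livers and 10.45, 9.94 and 10.62 in control livers. Double KO values lay just above the controls and within the range of the SMRT KO livers, where replicate 2 had the highest value of all 9. The log2 fold change of Acly was 0.39 against control (standard error 0.185, 95% interval -0.02 to 0.81, adjusted p = 0.494) and 0.12 against SMRT KO (-0.29 to 0.54, adjusted p = 0.898).

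Acss2 had a wider separation. Its log2 values were 11.49, 11.90 and 11.38 in double KO livers, 10.54, 10.31 and 10.69 in SMRT KO livers and 10.34, 10.34 and 11.18 in control livers. All double KO values were above the other 6, with control replicate 3 far above its own group. The log2 fold change was 0.97 against control, or 1.96-fold (standard error 0.229, 95% interval 0.46 to 1.49), and 1.08 against SMRT KO, or 2.11-fold (0.56 to 1.59). Neither passed over all genes (adjusted p = 0.120 and 0.0676). Without control replicate 3 both did, at 1.25 and an adjusted p of 0.0261 against control and 1.08 and 0.0173 against SMRT KO, and against SMRT KO it also passed with dim genes left out (adjusted p = 0.0407).

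Acetyl-CoA carboxylase makes malonyl-CoA, the committed step, in a cytosolic form encoded by Acaca and a form at the mitochondrial surface encoded by Acacb, whose malonyl-CoA restrains fatty acid entry into mitochondria. Acaca had log2 values of 10.47, 10.50 and 10.33 in double KO livers, 9.49, 9.50 and 9.10 in SMRT KO livers and 9.47, 9.37 and 9.60 in control livers. The double KO group stood apart from both others, and its 3 livers differed by less than the gap. Acaca rose by 0.95 against control (standard error 0.115, 95% interval 0.69 to 1.21, adjusted p = 0.00692) and by 1.07 against SMRT KO, or 2.10-fold (0.81 to 1.33, adjusted p = 0.00354). It had the 44th smallest p of all genes against control.

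Acacb had the largest rise of the 8 in both comparisons. Its log2 values were 10.06, 10.36 and 10.21 in double KO livers, 8.92, 8.34 and 8.46 in SMRT KO livers and 9.03, 8.50 and 9.16 in control livers. The lowest double KO liver was above the highest of the other 6. The rise was 1.31 against control (standard error 0.193, 95% interval 0.88 to 1.74, adjusted p = 0.0182) and 1.63 against SMRT KO, or 3.10-fold (1.20 to 2.07, adjusted p = 0.0052). Against control it did not pass without control replicate 1 or any of the double KO livers (adjusted p = 0.0520 to 0.0942), with log2 fold changes of 1.23 to 1.39.

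Mid1ip1 encodes MIG12, a small protein that binds acetyl-CoA carboxylase and promotes its assembly into active polymers. It had log2 values of 8.58, 8.66 and 8.14 in double KO livers, 7.51, 8.20 and 7.91 in SMRT KO livers and 7.73, 7.59 and 8.08 in control livers. Double KO replicate 3 lay close to the highest control liver and below SMRT KO replicate 2. The log2 fold change was 0.66 against control (standard error 0.199, 95% interval 0.21 to 1.10, adjusted p = 0.237) and 0.59 against SMRT KO (0.14 to 1.03, adjusted p = 0.303). It was the only member with more than 1 probe set. The other 2, with means of 5.99 and 5.97 near the receptor percentile above, gave 0.38 and -0.02 against control.

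Fasn encodes fatty acid synthase, which builds palmitate from malonyl-CoA and NADPH. It had log2 values of 12.57, 12.60 and 12.38 in double KO livers, 11.37, 11.78 and 11.15 in SMRT KO livers and 11.59, 11.26 and 11.56 in control livers. The groups did not overlap between double KO and the others, while SMRT KO values lay on both sides of the controls. Fasn rose by 1.05 against control (standard error 0.155, adjusted p = 0.0184) and by 1.08 against SMRT KO, or 2.11-fold (95% interval 0.73 to 1.43, adjusted p = 0.0129). The call against control was lost without any of the 6 double KO and control livers (adjusted p = 0.05003 to 0.0942), where the log2 fold change was 0.94 to 1.11. Against SMRT KO it was lost without double KO replicate 1 or 2 or SMRT KO replicate 1 (adjusted p = 0.0538, 0.0710 and 0.0596), and when only these 2 groups were fitted (0.0504).

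Aacs, acetoacetyl-CoA synthetase, activates the ketone body acetoacetate in the cytosol for lipid synthesis. Its log2 values were 9.24, 9.35 and 9.23 in double KO livers, 8.47, 9.22 and 8.30 in SMRT KO livers and 8.87, 8.70 and 8.77 in control livers. Double KO livers were above all others, though barely above SMRT KO replicate 2, which lay far above its own group. The log2 fold change was 0.49 against control (standard error 0.195, 95% interval 0.05 to 0.93, adjusted p = 0.396) and 0.61 against SMRT KO (0.17 to 1.05, adjusted p = 0.260). Without SMRT KO replicate 2 these were 0.49 and 0.89, and both passed (adjusted p = 0.0378 and 0.00869). Against control it also passed when only these 2 groups were fitted (adjusted p = 0.0489).

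Double KO against SMRT KO livers asks what the loss of NCoR adds where SMRT is already absent, and it also carries whatever background differences separate the mice of these groups. In this comparison 3 of 8 genes rose (Fasn, Acaca and Acacb), 0 fell and 5 did not pass, where 0.748% of all genes rose. The median log2 fold change was 0.84 (0.12 to 1.63), against 0.00166 over all genes. Groups did not overlap, with double KO higher, for 6 of 8 members and for 7.54% of all genes, with Acly and Mid1ip1 overlapping. This comparison and the one against control use the same double KO arrays, so their results are not independent.

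**Figure D2:**
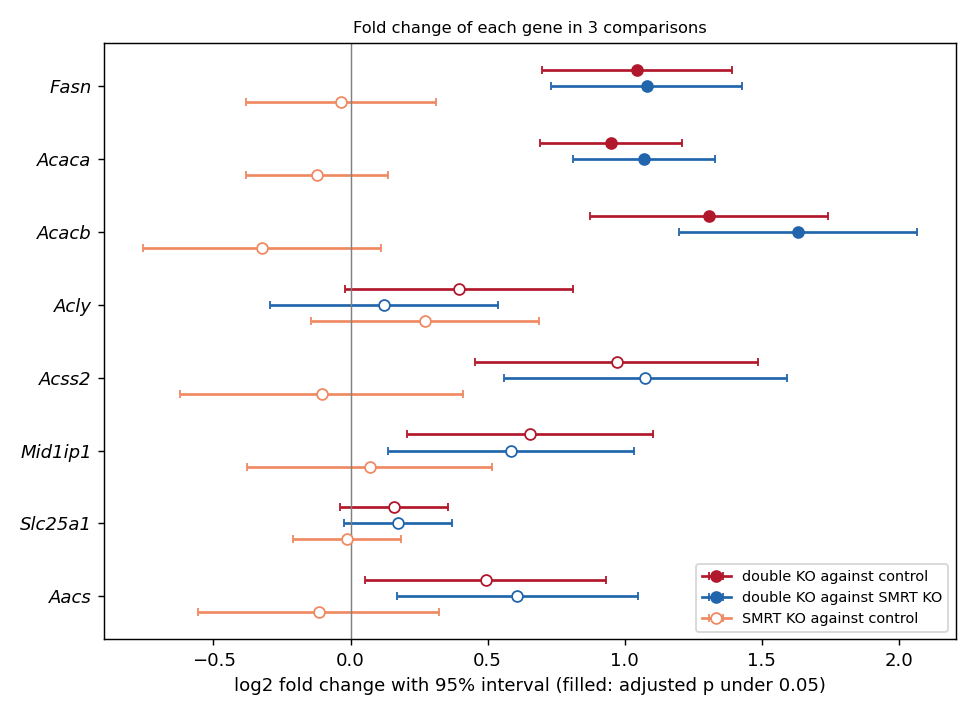
Log2 fold change of each gene (x axis) with its 95% interval from limma in double KO against control, double KO against SMRT KO and SMRT KO against control livers; filled points passed an adjusted p of 0.05. Fasn, Acaca and Acacb are filled in both double KO comparisons, and all SMRT KO against control intervals include 0.

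In SMRT KO against control livers none of the 8 genes passed limma's test, and 0 of 8 had an unadjusted p under 0.05, as 6.0% of all genes had. In double KO livers 6 of 8 had one against control and 6 of 8 against SMRT KO, where 10.8% and 10.5% of all genes did. Between SMRT KO and control livers 0.00451% of all genes passed in either direction. These groups overlapped for all 8 members, and failed to overlap in either direction for 8.16% of all genes. Log2 fold changes ran from -0.32 for Acacb (95% interval -0.76 to 0.11) to 0.27 for Acly (-0.14 to 0.69), with a median of -0.07 and 6 of 8 below 0. The intervals were -0.38 to 0.31 for Fasn, -0.38 to 0.14 for Acaca, -0.62 to 0.41 for Acss2, -0.38 to 0.52 for Mid1ip1, -0.21 to 0.18 for Slc25a1 and -0.55 to 0.32 for Aacs. The upper bound lay below the same gene's estimated rise in double KO livers for all members but Acly and Slc25a1, where it lay above. A difference that misses the threshold does not show equal levels.

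In each group a single liver led for most of the genes. Double KO replicate 2 had the highest value of its group for 8 of 8 genes, and the highest of all 9 livers for 7, all but Acly. Among SMRT KO livers replicate 2 was highest for 6 of 8, and among controls replicate 3 was highest for 6 of 8 and replicate 2 lowest for 6 of 8. Averaged over the 8 genes after centring each on its mean, the double KO livers lay at 0.48, 0.65 and 0.40, the SMRT KO livers at -0.34, -0.12 and -0.38 and the controls at -0.24, -0.45 and -0.01. The 8 genes were measured on the same arrays and are not replicates of each other.

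**Figure D3:**
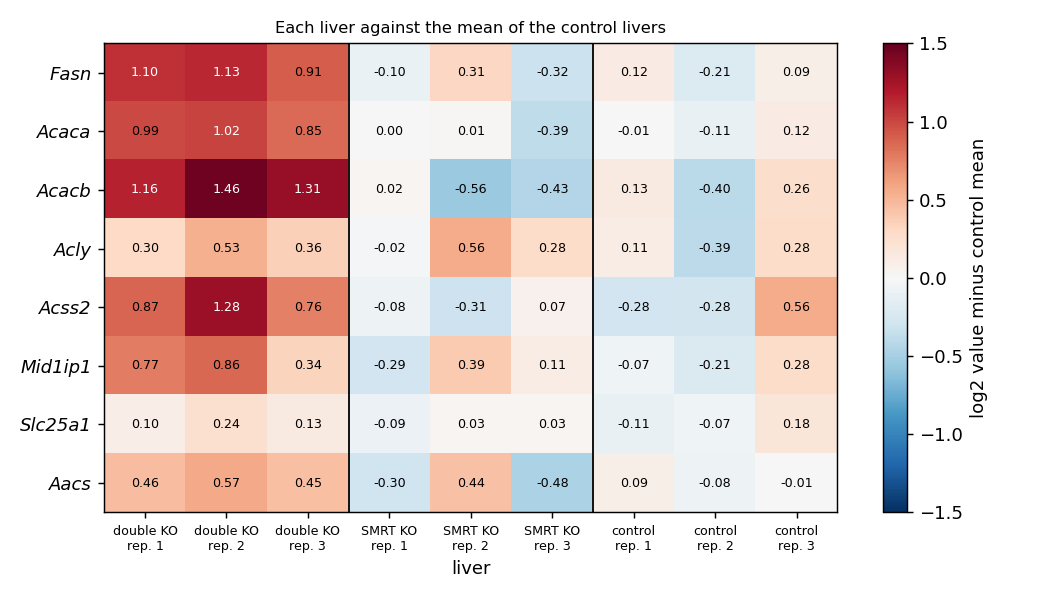
Log2 value of each gene (rows) in each liver (columns) minus the mean of the 3 control livers, with the number printed in each cell. The double KO columns are above 0 for all 8 genes, from 0.10 for Slc25a1 to 1.46 for Acacb.

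Within-liver differences of log2 values were taken for 3 pairs of the genes, chosen with the results above known. The Acacb minus Acaca difference averaged -0.22 ± 0.16 in double KO, -0.78 ± 0.32 in SMRT KO and -0.58 ± 0.25 in control livers (SD, n = 3 each). Double KO livers were higher than controls by 0.36 on average, with all 3 above all 3. For Acss2 minus Acly the averages were 0.86 ± 0.18, -0.10 ± 0.43 and 0.28 ± 0.35 in double KO, SMRT KO and control livers. For Fasn minus Slc25a1 they were 0.91 ± 0.11, 0.00101 ± 0.31 and 0.02 ± 0.20 in the same 3 groups. In each pair double KO livers lay above both other groups, for Acacb minus Acaca by a narrow margin, with a lowest double KO value of -0.41 and a highest control value of -0.44. Because the pairs were chosen for their values, these differences are a description with no test.

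The genes whose profiles were most like those of the 8 were found by the root mean square difference of centred log2 values over the 9 arrays. Fasn and Acaca were each other's nearest among all genes (0.118). Srebf1, which encodes SREBP-1, was nearest to Mid1ip1 (0.124), and Acot11, a thioesterase that cleaves fatty acyl-CoA, was nearest to Acacb (0.202). The nearest to Acss2 was Rdh11, a retinal reductase (0.197), to Acly Nmnat3, a mitochondrial NAD synthesis enzyme (0.118), to Aacs Idh3a, a subunit of mitochondrial isocitrate dehydrogenase (0.104), and to Slc25a1 Prkar2a, a regulatory subunit of protein kinase A (0.0433). Genes that change little have small differences from many others, so these distances are not comparable between members.

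Nearest to the mean profile of all 8 were Olfml1 (0.103), Rdh16 (0.122), H2-Q1 (0.127), Eepd1 (0.129), Tnfrsf19 (0.140), Snhg11 (0.147), Papss2 (0.147) and Pla2g4f (0.151). These were chosen for their likeness, so their fold changes are not tested here. Acaca was 14th of 22180 genes by this distance, Mid1ip1 24th and Fasn 27th, although the mean includes them. Acacb was 12015th (0.408). The distance also counts the size of a change, and Acacb had the largest rise of the 8 in both double KO comparisons. Its rank therefore does not show a different pattern over the groups.

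The other genes of the pathway were described as 7 lists, whose medians against control were all below that of the 8. Of 8 measured genes for NADPH supply and the pentose phosphate pathway, 3 rose and 0 fell against control, where 0.523% of all genes rose and 0.320% fell. These were Me1, malic enzyme (log2 fold change 1.41, adjusted p = 0.0195), Pgd, 6-phosphogluconate dehydrogenase (0.72, adjusted p = 0.0182), and Rpia, ribose 5-phosphate isomerase (0.42, adjusted p = 0.0317). The other 5 did not pass, and the list's median was 0.10. Me1 had log2 values of 12.28, 12.22 and 12.14 in double KO livers, 11.02, 10.77 and 10.01 in SMRT KO livers and 10.76, 10.68 and 10.97 in control livers. Against SMRT KO livers Me1 was the only gene of this list called higher (1.61, adjusted p = 0.00809), where 0.748% of all genes rose. In this comparison 6 of the 8 were above 0, as were 50.6% of all genes. At an unadjusted p under 0.05 limma counted 3 of the 8 against control and 5 against SMRT KO, where 10.8% and 10.5% of all genes had such a p.

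Of 16 measured genes from glycolysis to citrate, 1 was called higher and 0 lower against control (median 0.14), where 0.523% of all genes rose. Of these 16, 13 were above 0, as were 51.3% of all genes. By limma 7 of the 16 had an unadjusted p under 0.05, as 10.8% of all genes had. The list's 1 called gene was Dlat, the acetyltransferase subunit of pyruvate dehydrogenase (0.41, adjusted p = 0.0262). Against SMRT KO 3 rose and 0 fell, where 0.748% of all genes rose and 0.437% fell. They were Dlat (0.40, adjusted p = 0.0243), Pdha1, another pyruvate dehydrogenase subunit (0.47, adjusted p = 0.0366), and Cs, citrate synthase (0.47, adjusted p = 0.0300). Against SMRT KO 14 of the 16 were above 0 (50.6% of all genes). By limma 8 had an unadjusted p under 0.05 (10.5% of all genes).

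Of 11 genes that regulate the carboxylases or use malonyl-CoA, 0 passed limma's test against control, where 7 were above 0 (median 0.05) and 2 had an unadjusted p under 0.05. Of all genes 51.3% were above 0 and 10.8% had such a p. Against SMRT KO livers 3 of the 11 had such a p, as 10.5% of all genes had. Mlycd, which encodes malonyl-CoA decarboxylase and so breaks down the carboxylases' product, rose against SMRT KO (0.53, adjusted p = 0.0133). Its log2 values were 9.31, 9.31 and 9.44 in double KO livers, 8.73, 8.85 and 8.90 in SMRT KO livers and 8.90, 9.06 and 9.04 in control livers. All double KO livers were above the other 6. Thrsp, the paralogue of Mid1ip1 and a thyroid hormone-responsive lipogenic protein, had 11.04, 11.27 and 10.98 in double KO livers, 9.90, 10.52 and 9.10 in SMRT KO livers and 10.23, 9.00 and 10.14 in control livers. Its double KO values were above all others, and with a standard error of 0.380 the log2 fold change of 1.30 did not pass (adjusted p = 0.217).

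Beyond palmitate, 2 of 11 measured genes rose and 0 fell against control and against SMRT KO livers (medians 0.29 and 0.25). Of all genes 0.523% and 0.748% rose in these comparisons. At an unadjusted p under 0.05 limma counted 7 of the 11 in each, where 10.8% and 10.5% of all genes had such a p. Elovl6, which lengthens palmitate, had log2 values of 12.03, 12.07 and 12.17 in double KO livers, 10.37, 11.20 and 10.15 in SMRT KO livers and 10.45, 9.97 and 10.25 in control livers. The double KO livers were close together and far above the other 6. Elovl6 rose by 1.87 and 1.52, and Scd1, which desaturates it, by 0.71 and 0.64 (adjusted p = 0.00821, 0.0168, 0.0195 and 0.0240). Among 14 lipogenic transcription factors and their regulators 2 rose and 0 fell in each double KO comparison. The median of these 14 was 0.00294 against control, with 7 below 0, and 0.07 against SMRT KO, with 5 below 0. At an unadjusted p under 0.05 limma counted 4 of the 14 against control and 3 against SMRT KO. Mlxipl had log2 values of 11.72, 11.62 and 11.59 in double KO livers, 11.25, 10.96 and 11.00 in SMRT KO livers and 10.99, 10.83 and 11.06 in control livers. It rose by 0.68 against control (adjusted p = 0.0129) and by 0.57 against SMRT KO (adjusted p = 0.0227). Insig2, which retains SREBP precursors in the endoplasmic reticulum, rose by 0.88 (adjusted p = 0.0225) and 0.80 (adjusted p = 0.0289).

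Srebf1 had log2 values of 10.13, 10.03 and 9.84 in double KO livers, 9.27, 9.96 and 9.66 in SMRT KO livers and 9.29, 9.16 and 9.70 in control livers. Double KO values were above the controls and overlapped the SMRT KO livers. Its log2 fold changes were 0.62 against control (adjusted p = 0.230) and 0.37 against SMRT KO (adjusted p = 0.548), and neither passed.

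The separate mitochondrial route of fatty acid synthesis, which feeds lipoic acid, had 0 of 10 genes called by limma in any comparison, with log2 fold changes of 0.02 to 0.21 against control and a median of 0.11. At an unadjusted p under 0.05 limma counted 1 of these 10 against control, 3 against SMRT KO and 0 in SMRT KO against control livers. Among all genes the shares were 10.8%, 10.5% and 6.0% in the same order. Cholesterol synthesis and uptake had 0 of 16 called against control (median 0.13, with 1 at an unadjusted p under 0.05) and 1 against SMRT KO, Tm7sf2, a sterol reductase (0.62, adjusted p = 0.0243). Of all genes 10.8% were at such a p against control, and 0.748% were called higher against SMRT KO. The list's median against SMRT KO was 0.24, and 4 of 16 had an unadjusted p under 0.05 by limma, as 10.5% of all genes had.

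**Figure D4:**
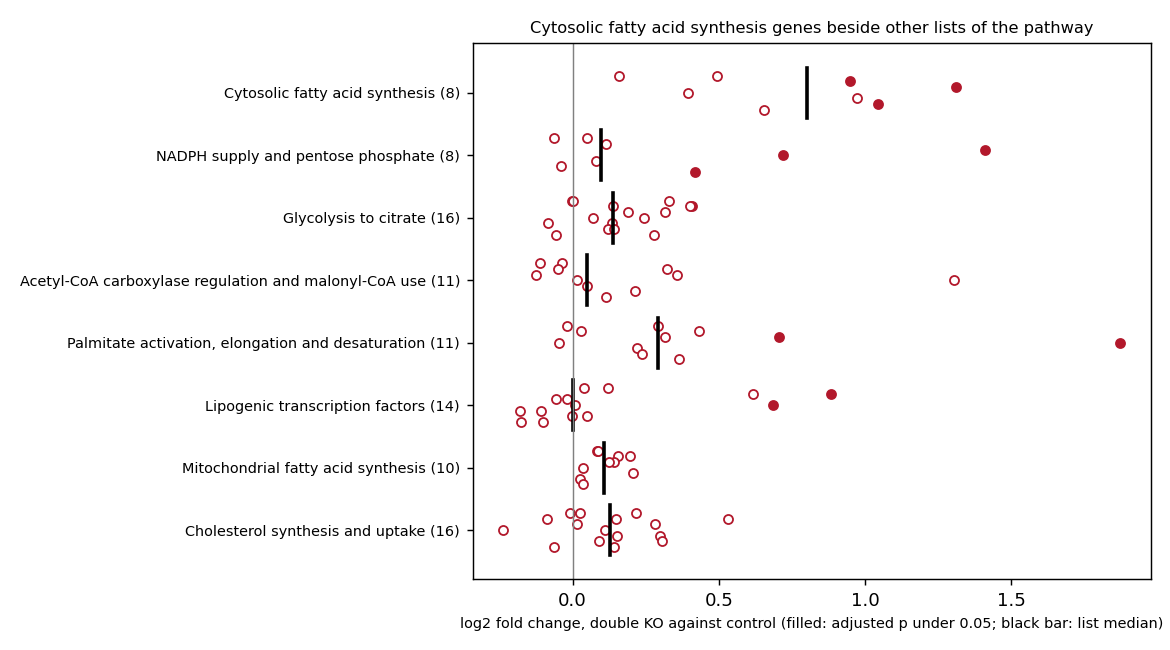
Log2 fold change in double KO against control livers (x axis) of the 8 genes and of 7 other lists, with the number of measured genes in brackets; filled points passed an adjusted p of 0.05 and black bars are list medians. The median of the 8 is 0.80 and that of the other lists 0.00294 to 0.29.

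Adipose tissue also expresses this route, so its markers were read beside the results. Of 6 measured adipocyte markers, 1 was above 0 in double KO against control and 1 against SMRT KO livers, with summed linear levels of 271 to 274 in double KO, 265 to 282 in SMRT KO and 261 to 379 in control livers. Adipoq, Lep, Ucp1 and Tshr lay at or below the receptor percentile. Hepatocyte markers, whose sums were lower in double KO livers as given above, were above 0 for 1 of 8 in each double KO comparison (median -0.14 against control and -0.06 against SMRT KO), and none was called by limma. Serpina1e, an alpha-1-antitrypsin gene, had the widest gap of these, with mean log2 values of 9.73 in double KO, 10.89 in SMRT KO and 10.87 in control livers, while Alb, albumin, had 13.91, 13.96 and 13.95 in the same 3 groups. Macrophage markers were above 0 for 5 of 11 against control and 0 of 11 against SMRT KO (median -0.23), with summed levels of 4435 to 5212 in double KO, 5309 to 6171 in SMRT KO and 4437 to 5228 in control livers. No marker of the endothelial, cholangiocyte or lymphocyte lists was called in either double KO comparison. Among 8 stellate markers 1 was called lower in each, Lrat, where 0.320% and 0.437% of all genes were called lower. The stellate list as a whole was mixed, with 4 of 8 above 0 against control and 3 against SMRT KO (medians -0.05 and -0.08). The part of the hepatocyte and macrophage marker levels in the differences was not tested.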

How the data were processed

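Amplified, biotin-labelled total RNA (200 ng) of each mouse was hybridised to a separate array. The deposited table holds log2 expression values from RMA, a tool named in the submitters' processing notes with no version. RMA removes background, equalises the distributions of the arrays and combines probes into probe sets, which hides any shift common to most genes. Arrays carry no read depth, and their number limits precision. Of 41345 probe sets, 23521 had exactly 1 gene symbol in the platform annotation, and the probe set with the highest mean over the 9 arrays stood for its gene, which left 22180 genes.

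Using R 4.3.3, a limma model (version 3.58.1; two-sided moderated tests from eBayes) was fitted to every gene over all 9 arrays without a block, and p-values were adjusted by Benjamini-Hochberg over all genes of a contrast. Errors are limma's standard errors and 95% intervals or SDs over 3 mice. The p-values set each difference against limma's estimate of the spread between mice, which is pooled over the groups and draws on all genes. The members and lists were chosen with earlier results of these data known. Genes named were the 8 members, called genes of the 7 pathway lists, 6 lipogenic genes whatever their values (Thrsp, Me1, Elovl6, Scd1, Srebf1, Mlxipl) and nearest profiles. Pathway genes without a single-symbol probe set were not analysed here. Symbols were matched through Entrez identifiers to RefSeq (GRCm38.p6).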

Additional observations from a re-analysis of the deposited data

How the results depend on the processing

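The count of called genes among the 8 was recomputed under 21 alternatives. Against control it was 3 and became 1 to 4 when single livers were left out, with 1 without control replicate 1 or any double KO liver, and 1 when p-values were adjusted over all 41345 probe sets, where Acaca remained and Fasn and Acacb were at an adjusted p of 0.0641. Against SMRT KO livers it was 3 and stayed between 2 and 4, and in SMRT KO against control livers it was 0 throughout. Acaca kept its call in both double KO comparisons under all its 19 alternatives (adjusted p up to 0.0478), and Acacb kept its call against SMRT KO (up to 0.0327). With the replicate number as a block the counts were 3, 3 and 0. Deviations of same-numbered livers correlated at -0.08 to 0.12 over 9 pairs of livers, and those of differently numbered livers at -0.15 to 0.16 over 18. The labels state no pairing, so the numbers were not taken to pair mice. Whether same-numbered livers shared a litter or a batch was not tested. With the block 152 genes were called in double KO against control, and 187 without it.

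Signs turned only for fold changes that did not pass. Mid1ip1 had -0.0205 against control and -0.047 against SMRT KO by its dimmest probe set. Acly against SMRT KO ran from -0.0233 to 0.264 as livers were left out. In SMRT KO against control livers these ranges were -0.209 to 0.107 for Fasn, -0.19 to 0.00901 for Acaca, -0.246 to 0.176 for Acss2, -0.0918 to 0.25 for Mid1ip1, -0.0681 to 0.0767 for Slc25a1 and -0.392 to 0.0665 for Aacs. Slc25a1 was also 0.00667 after quantile normalization and 0.00332 after cyclic loess, and Mid1ip1 -0.00983 with array weights. The causes were not tested.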
